A study of Mus musculus with 6 samples.

Results

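The family of miR-34 and miR-449 in brain extracellular vesicles, the membrane-bound particles that cells release, was described across 6 mouse miRNA libraries. Its members were the 7 entries named miR-34a-5p, miR-34b-5p, miR-34b-3p, miR-34c-5p, miR-34c-3p, miR-449a-5p and miR-449c-5p, out of 1926 entries listed, and none of them was merged with another miRNA. The members were chosen by name and not by a cut on their values, with earlier results of these data known. 3 libraries came from brain-derived extracellular vesicles of mice that had undergone status epilepticus, a prolonged seizure (SE-BDEV), and 3 from vesicles of matched control mice (CON-BDEV). A time of 24 hr stands in the title of the series. The sources used here do not give strain, age, sex, the agent that induced the seizure or whether brains were pooled. All vesicles were taken from brain tissue as a whole, so they carry no label of the cell that released them.

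MicroRNAs are short RNAs that pair with messenger RNAs, mainly through the bases of their 5′ end called the seed, and lower their stability and translation. miR-34a has a gene of its own, which the tumour suppressor p53 can switch on, and it is the main family member in brain. miR-34b and miR-34c come from 1 shared transcript, and the miR-449 hairpins lie in the Cdc20b gene. miR-34b, miR-34c and miR-449 are best known from cells with many motile cilia, such as those of airway, oviduct, choroid plexus and ependyma, where they are needed for cilia to form.

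The mature sequences are shown because the family is defined by its seed. RefSeq (GRCm38.p6) held 6 of the 7 members, and miR-34c-5p is named only. Sequences run 5′ to 3′ and capitals mark the seed, bases 2 to 8.
miR-34a-5p: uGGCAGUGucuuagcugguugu
miR-34b-5p: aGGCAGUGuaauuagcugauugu
miR-449a-5p: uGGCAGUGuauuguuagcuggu
miR-449c-5p: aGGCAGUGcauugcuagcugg
miR-34b-3p: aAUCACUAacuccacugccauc
miR-34c-3p: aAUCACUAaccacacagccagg
The 4 5p arms shown share the seed GGCAGUG, which no other of the 1679 mature mouse miRNAs in the RefSeq table carries. That table has no entry for miR-34c-5p or miR-449b, so their seeds were not compared. The 3p arms of miR-34b and miR-34c share a different seed, AUCACUA, found in 2 of the 1679. Outside the seed the 5p arms diverge. miR-34a-5p differs from miR-34b-5p by 4 single-base edits (substitutions, insertions or deletions), from miR-449a-5p by 6 and from miR-449c-5p by 7.

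In GRCm38.p6 the miR-34a hairpin lies at chr4:150068454-150068555 on the plus strand. Of its bases, 17 overlap an exon of Gm37795 on the same strand, a transcript of unclear status in GENCODE M21. The hairpins of miR-34c (chr9:51103034-51103110) and miR-34b (chr9:51103562-51103645) lie on the minus strand, 451 bases apart, opposite an intron of Btg4. The hairpins of miR-449c (chr13:113035983-113036091) and miR-449a (chr13:113037534-113037624) lie on the plus strand in an intron of Cdc20b, 1442 bases apart. The deposited files give no coordinates, and the submitters' processing notes name another build, mm9.

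The libraries held 5482407 to 10845434 miRNA reads. Levels are in RPM, reads of a miRNA scaled to the miRNA reads of its library. A lower level can stand for fewer vesicles of a kind or for less miRNA in each, which cannot be told apart in bulk samples. The row names of the deposited RPM values fit the SE-BDEV columns only. CON-BDEV rows were therefore matched to names through the base means in the authors' deposited table. Each of the 6 detected members matched a single CON-BDEV row, so every CON-BDEV value below rests on that step. Directions follow the labels of the columns, which no value here checks. Nothing in the labels ties replicates to separate animals, and so a p-value here measures the spread between these samples alone, which may be technical. 10 neuron-enriched miRNAs were all detected, with a summed level of 51480 to 56439 RPM in SE-BDEV and 53766 to 59004 RPM in CON-BDEV libraries. Without a sample from outside the brain, this does not test the origin of the vesicles.

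6 of the 7 members were detected, and miR-34a-5p alone made up most of the family. The whole family took 664 RPM ± 36.8 (SD, n = 3) in SE-BDEV and 748 RPM ± 75.7 (SD, n = 3) in CON-BDEV libraries, or 0.0664% and 0.0748% of miRNA reads. By library the sum ran from 624 to 697 RPM in SE-BDEV and from 692 to 834 RPM in CON-BDEV, so the groups overlapped by a narrow margin. miR-34a-5p held 85.8% ± 2.34 (SD, n = 3) of the family's reads in SE-BDEV and 84.5% ± 6.32 (SD, n = 3) in CON-BDEV libraries. The 4 arms of miR-34b and miR-34c together held 12.6% ± 2.06 and 13.9% ± 5.93 (SD, n = 3), and miR-449a-5p held 1.57% ± 0.348 and 1.69% ± 0.801 (SD, n = 3).

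**Figure D1:**
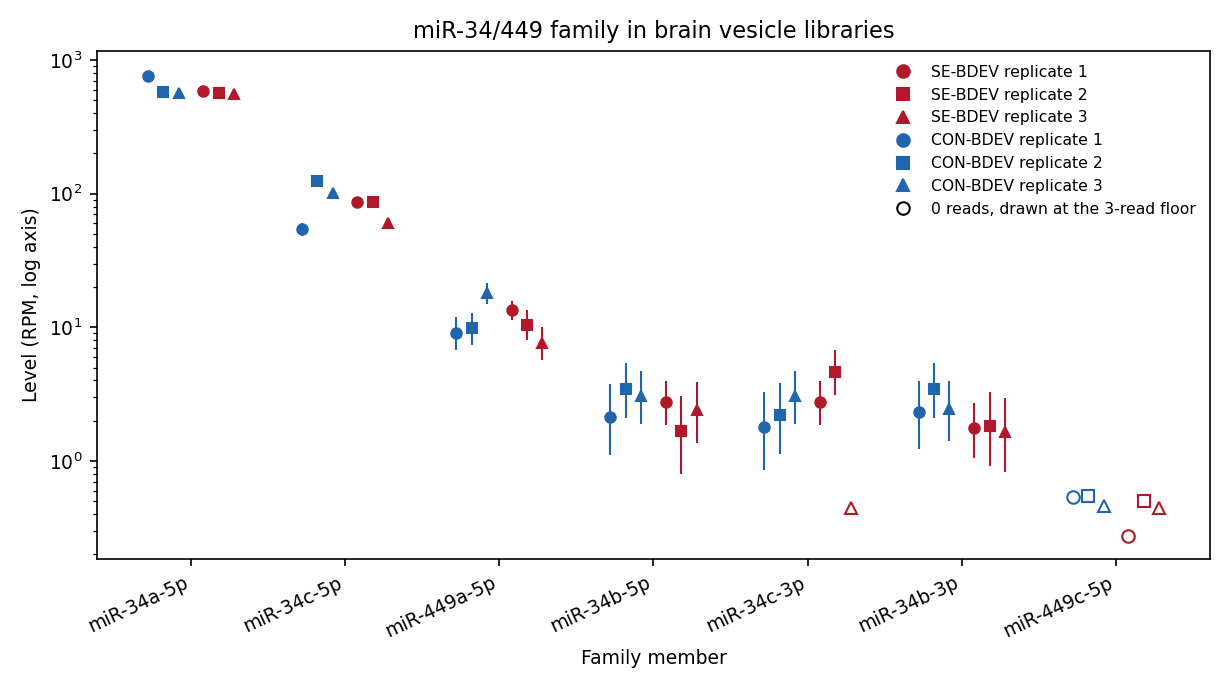
Level in RPM (log axis) of each family member in each library, blue for CON-BDEV and red for SE-BDEV, with a marker shape per replicate number and 95% exact Poisson intervals that cover counting error only. Open markers are libraries with 0 reads, drawn at the level of 3 reads. miR-34a-5p lies between 553 and 765 RPM, miR-34c-5p between 54.0 and 125 RPM, and miR-449c-5p has no read in any library.

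In order of mean level over the 6 libraries, miR-34a-5p (602 RPM) stood above miR-34c-5p (85.3 RPM), miR-449a-5p (11.4 RPM), miR-34b-5p (2.58 RPM), miR-34c-3p (2.41 RPM) and miR-34b-3p (2.25 RPM). Among 775 detected miRNAs these ranked 58, 133, 281, 438, 445 and 455. The mature forms with a sequence are 21 to 23 bases long and a read covers a whole mature miRNA, so RPM needs no correction for length. Whether the libraries captured each member equally was not tested, so the order between members is one of reads. The ranges of miR-34a-5p, miR-34c-5p, miR-449a-5p and miR-34b-5p were separate, with neighbours in this order in 6 of 6 libraries. The levels of miR-34b-5p, miR-34c-3p and miR-34b-3p overlapped in range, with the order of neighbouring means held in 3 of 6 libraries for each pair.

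The hairpins differed in how the reads fell on their arms. The miR-34a hairpin gave 24600 reads of the 5p arm over all libraries and 3 reads of miR-34a-3p, all in SE-BDEV replicate 2. From the miR-34c hairpin came 3498 reads of the 5p and 100 of the 3p arm, and 5p made up 97.3% ± 2.58 (SD, n = 3) in SE-BDEV and 97.4% ± 0.795 (SD, n = 3) in CON-BDEV libraries. For miR-34b the arms were near even, at 107 reads of 5p and 89 of 3p, with a 5p share of 56.0% ± 7.35 (SD, n = 3) in SE-BDEV and 51.2% ± 3.91 (SD, n = 3) in CON-BDEV libraries. miR-449a gave 481 reads of the 5p arm and 0 of the 3p arm. Although miR-34b and miR-34c lie on 1 transcript, reads of miR-34c-5p exceeded those of miR-34b-5p by 25.1 to 51.9 times in all 6 libraries. The sources used here do not say how reads that fit both were assigned.

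miR-34a-5p, which p53 can induce, stood at 590, 565 and 553 RPM in SE-BDEV replicates 1, 2 and 3. In CON-BDEV replicates 1, 2 and 3 it stood at 765, 574 and 565 RPM. CON-BDEV replicate 1 was high, and the other 5 libraries lay close together, so the groups overlapped. The means were 569 RPM ± 18.9 (SD, n = 3) in SE-BDEV and 635 RPM ± 113 (SD, n = 3) in CON-BDEV. limma-trend was fitted to log2(RPM + 1) of the 290 miRNAs whose mean reached 10 RPM. On this scale the change of a low miRNA is understated. For miR-34a-5p limma gave a log2 difference, SE-BDEV minus CON-BDEV, of -0.14 (standard error 0.19) with an adjusted p of 0.871 (Benjamini-Hochberg). The 95% interval of the difference, -0.54 to 0.25, spans 1.45-fold lower to 1.19-fold higher in SE-BDEV, and without CON-BDEV replicate 1 the difference was -0.0024.

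miR-34c-5p, the main product of the miR-34b/c transcript, stood at 86.7, 86.3 and 59.9 RPM in SE-BDEV and at 54.0, 125 and 100.4 RPM in CON-BDEV replicates 1, 2 and 3. The CON-BDEV libraries held both the lowest and the highest value, 2.31-fold apart, and all 3 SE-BDEV values lay between them. limma gave a log2 difference of -0.20 (standard error 0.28) with an adjusted p of 0.881 and a 95% interval of -0.78 to 0.39. It was -0.54 without CON-BDEV replicate 1 and 0.054 without CON-BDEV replicate 2.

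miR-449a-5p, the one miR-449 product detected, stood at 13.4, 10.5 and 7.62 RPM in SE-BDEV and at 9.12, 9.85 and 17.99 RPM in CON-BDEV replicates 1, 2 and 3, from 51 to 145 reads. The highest value was CON-BDEV replicate 3, the lowest SE-BDEV replicate 3, and the groups overlapped. limma gave a log2 difference of -0.18 (standard error 0.31) with an adjusted p of 0.893 and a 95% interval of -0.85 to 0.48. Its sign turned without SE-BDEV replicate 3 (0.0074) and without CON-BDEV replicate 3 (0.10).

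Thus 0 of the 3 members over the filter passed at an adjusted p under 0.05, where limma called 3 of all 290 miRNAs (1.03%), 0.345% higher and 0.69% lower in SE-BDEV. With unadjusted p-values of 0.455, 0.488 and 0.565, 0 of the 3 lay under 0.05, beside 27 of all 290 (9.31%), and limma-voom on reads called 0 as well. The median log2 difference of the 3 was -0.18, beside -0.07 for all 290. The authors' deposited table calls 8 of 772 miRNAs (1.04%) and 0 of the 6 detected members, with adjusted p from 0.975 to 0.990. Its fold changes are positive where the CON-BDEV columns are the higher ones. For the 5p arms the authors' deposited table gives log2 fold changes of 0.05 (standard error 0.14) for miR-34a-5p, 0.18 (0.36) for miR-34c-5p, 0.15 (0.42) for miR-449a-5p and 0.25 (0.58) for miR-34b-5p. For the 3p arms the authors' deposited table gives 0.57 (0.59) for miR-34b-3p and -0.14 (1.36) for miR-34c-3p.

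**Figure D2:**
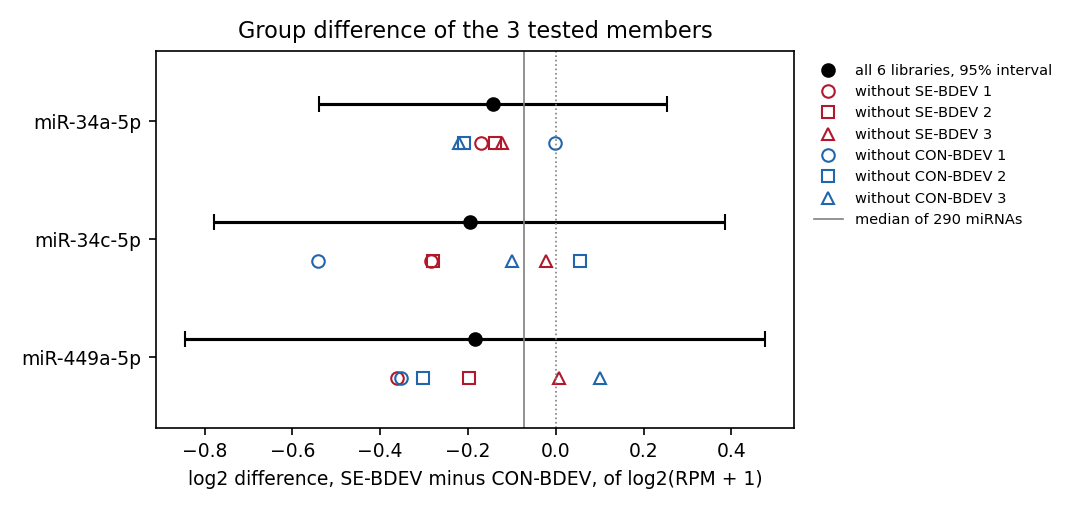
Log2 difference in level, SE-BDEV minus CON-BDEV, of the 3 members over 10 RPM, with 95% limma intervals (black) and the same difference after leaving out each library (open markers, coloured by the group of the library left out). The grey line is the median of all 290 miRNAs at -0.07, and each interval covers 0.

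The other 4 members had a mean below 10 RPM and did not enter that test. miR-34b-5p stood at 2.77, 1.66 and 2.39 RPM in SE-BDEV and at 2.15, 3.47 and 3.07 RPM in CON-BDEV replicates 1, 2 and 3, from 10 to 30 reads a library, and the groups overlapped. miR-34b-3p stood at 1.75, 1.83 and 1.64 RPM in SE-BDEV, from 19, 11 and 11 reads, and at 2.32, 3.47 and 2.46 RPM in CON-BDEV, from 13, 19 and 16 reads. All 3 SE-BDEV values of miR-34b-3p lay below all 3 CON-BDEV values, also with size factors in place of the library totals. This was so for 16 of 268 miRNAs with a mean of 1 to 10 RPM (5.97%), and 23 of them (8.58%) had no overlap in either direction.

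The means of miR-34b-3p were 1.74 RPM ± 0.0925 (SD, n = 3) in SE-BDEV and 2.75 RPM ± 0.624 (SD, n = 3) in CON-BDEV, a ratio of 0.633. The exact Poisson intervals of single libraries overlapped, from 0.821 to 2.94 RPM for the lowest SE-BDEV value and from 2.09 to 5.41 RPM for the highest CON-BDEV value. When limma was run without the filter, on 775 miRNAs of which 4 were called (0.516%), the log2 difference of miR-34b-3p was -0.44 (standard error 0.32) with an adjusted p of 0.891. miR-34b-5p had -0.25 (0.34) and an adjusted p of 0.918 in that limma fit.

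miR-34c-3p stood at 2.77, 4.65 and 0 RPM in SE-BDEV and at 1.79, 2.19 and 3.07 RPM in CON-BDEV replicates 1, 2 and 3. SE-BDEV replicate 3 had 0 reads, with 3 reads worth 0.448 RPM there and the 95% exact Poisson interval reaching 0.551 RPM, while replicates 1 and 2 had 30 and 28 reads. The 5p arm of the same hairpin had 401 reads in SE-BDEV replicate 3. limma without the filter gave a log2 difference of -0.26 (standard error 0.62) with an adjusted p of 0.939, while the ratio of the means was 1.05 the other way. This ratio was 1.58 without SE-BDEV replicate 3 and 0.588 without SE-BDEV replicate 2.

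miR-449c-5p had 0 reads in all 6 libraries, as did miR-449a-3p, miR-449b and miR-449c-3p. The level of 3 reads, which a count of 0 still allows, was 0.277 to 0.547 RPM by library and 0.0729 RPM over all 41133382 reads. Such limits leave out every error but counting. Because no library listed a value worth less than 2 reads, 1 read may stand behind a 0 in any library. The limits above take a 0 as no read, so they may be too low, most of all the one over all reads.

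Reads of the miR-34b and miR-34c arms can be set against miR-34a-5p within a library, a ratio that no scaling between libraries changes. miR-449a-5p does not enter this ratio. Reads of the 4 miR-34b and miR-34c arms per read of miR-34a-5p were 0.159, 0.167 and 0.116 in SE-BDEV and 0.0787, 0.233 and 0.193 in CON-BDEV replicates 1, 2 and 3. CON-BDEV replicate 1 had the highest miR-34a-5p and the lowest miR-34c-5p of all libraries, and so the lowest ratio. The log2 ratio averaged -2.78 ± 0.288 (SD, n = 3) in SE-BDEV and -2.71 ± 0.835 (SD, n = 3) in CON-BDEV, a difference of -0.07. An exact two-sided permutation test gave p = 1.0, and with 3 libraries a group the smallest p possible is 0.1. Without CON-BDEV replicate 1 the difference was -0.54, and without CON-BDEV replicate 2 it was 0.24.

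The members varied to different degrees between libraries of the same group. The SD within groups on the log2 scale was 0.18 for miR-34a-5p, 0.49 for miR-34c-5p and 0.44 for miR-449a-5p, beside a median of 0.25 for the 290 miRNAs. Counting error alone would give about 0.02, 0.06 and 0.18. By group the SD was 0.048 in SE-BDEV and 0.25 in CON-BDEV for miR-34a-5p, 0.30 and 0.62 for miR-34c-5p, and 0.37 and 0.50 for miR-449a-5p. Without CON-BDEV replicate 1 the SD within groups was 0.040 for miR-34a-5p and 0.28 for miR-34c-5p, so much of both rests on that library. Of the 75 miRNAs within 2-fold of the level of miR-34c-5p, this member included, 4 had a larger SD. The same count was 15 of 71 for miR-449a-5p and 21 of 31 for miR-34a-5p. Single libraries moved these counts. For miR-34c-5p the count was 31 without CON-BDEV replicate 1, 10 without CON-BDEV replicate 2 and 1 without SE-BDEV replicate 1. For miR-449a-5p it was 36 without CON-BDEV replicate 3, 7 without CON-BDEV replicate 1 and 9 without CON-BDEV replicate 2, and for miR-34a-5p it was 30 without CON-BDEV replicate 1.

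**Figure D3:**
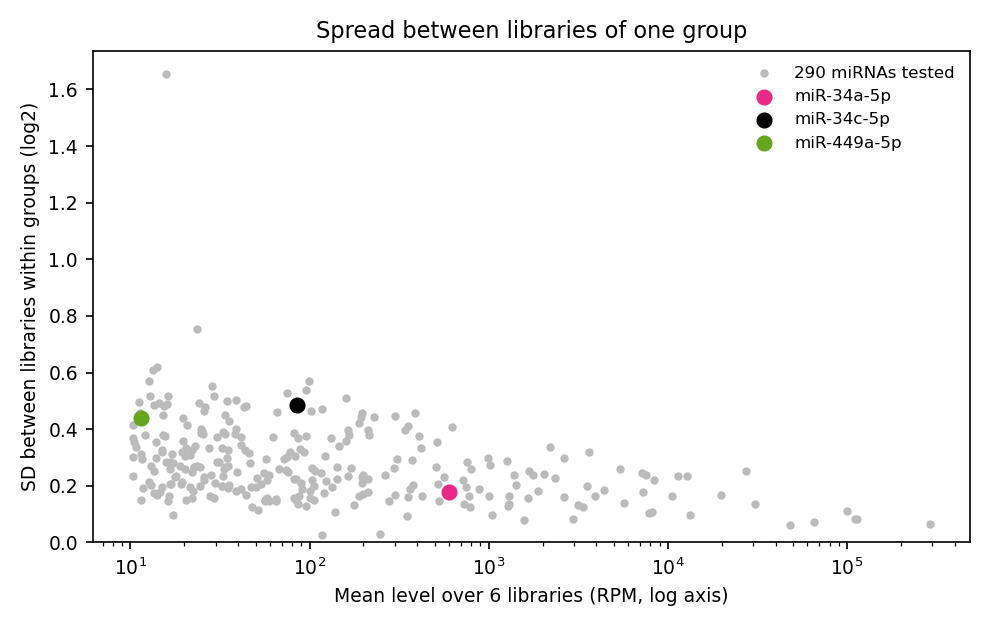
SD between libraries within groups on the log2 scale against the mean level in RPM (log axis), for 290 miRNAs (grey) with miR-34a-5p, miR-34c-5p and miR-449a-5p in colour. miR-34c-5p (0.49) lies near the upper edge at its level with all libraries, but at 0.28 without CON-BDEV replicate 1, and miR-34a-5p (0.18) lies within the bulk.

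Profiles over the 6 libraries were then compared, as the root mean square distance between log2(RPM + 1) values, each miRNA centred on its own mean. Nearest to miR-34c-5p among 289 other miRNAs were miR-448-3p at 0.158, miR-204-3p at 0.204 and miR-298-5p at 0.259, where the median distance was 0.460 and miR-34c-5p itself deviated from its mean by 0.409. miR-448 is encoded within the serotonin receptor gene Htr2c, and miR-204 is abundant in choroid plexus. Whether either trait bears on the likeness was not tested. miR-448-3p stood at 66.8, 94.6 and 61.1 RPM in SE-BDEV and at 54.9, 121 and 100.5 RPM in CON-BDEV replicates 1, 2 and 3. miR-204-3p stood at 53.4, 42.2 and 34.2 RPM in SE-BDEV and at 29.3, 68.2 and 39.5 RPM in CON-BDEV replicates 1, 2 and 3. Both were lowest in CON-BDEV replicate 1 and highest in CON-BDEV replicate 2, as was miR-34c-5p. miR-298-5p was also lowest in CON-BDEV replicate 1 (137 RPM) but highest in SE-BDEV replicate 1 (258 RPM, beside 242 RPM in CON-BDEV replicate 2). The other arm of the miR-204 hairpin, the more abundant miR-204-5p, had another order, lowest in SE-BDEV replicate 3 (257 RPM) and highest in SE-BDEV replicate 2 (561 RPM).

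Nearest to miR-34a-5p were miR-30b-3p at 0.0801, miR-127-3p at 0.0926 and miR-221-3p at 0.0965, where miR-34a-5p itself deviated by 0.161. All 3 were highest in CON-BDEV replicate 1, as was miR-34a-5p. For miR-449a-5p they were miR-340-5p at 0.187, miR-532-3p at 0.187 and miR-29b-3p at 0.196, each highest in CON-BDEV replicate 3, as was miR-449a-5p. These distances are descriptions over 6 libraries and share the scaling of each library.

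**Figure D4:**
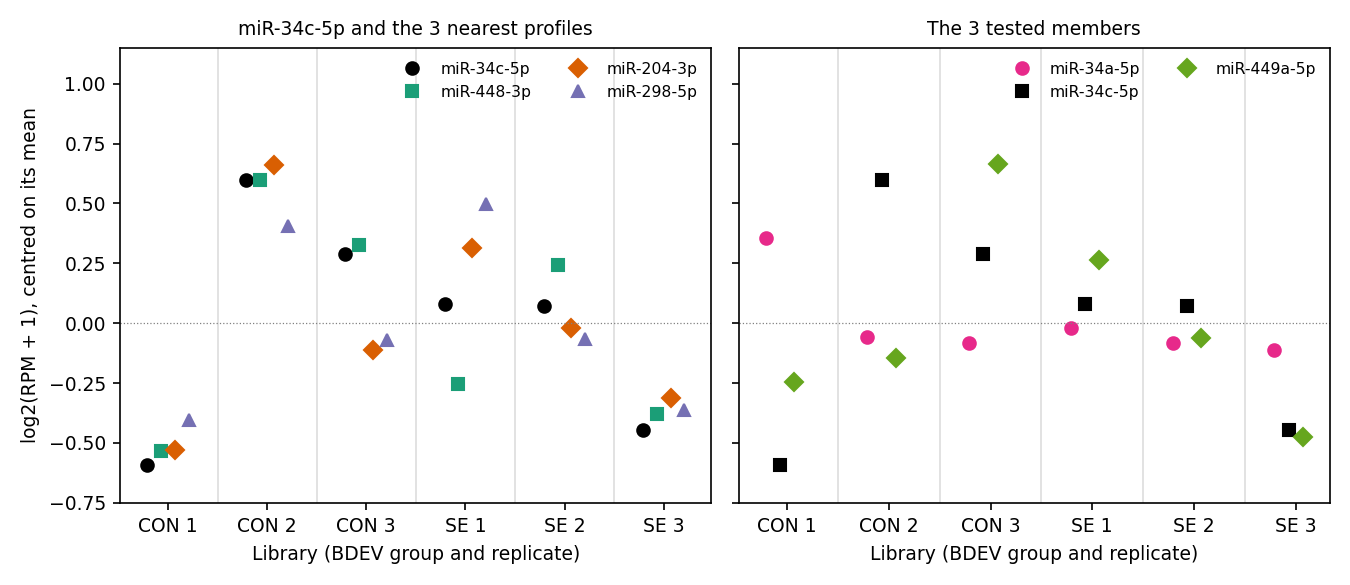
Log2(RPM + 1) centred on each miRNA's own mean, in each CON-BDEV and SE-BDEV library, for miR-34c-5p with its 3 nearest profiles (left) and for the 3 tested members (right). miR-34c-5p, miR-448-3p and miR-204-3p all lie lowest in CON-BDEV replicate 1 and highest in CON-BDEV replicate 2, and miR-298-5p is highest in SE-BDEV replicate 1. In the right panel miR-34a-5p is highest in CON-BDEV replicate 1 and miR-449a-5p in CON-BDEV replicate 3.

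Markers of choroid plexus and epithelium were read beside the ciliated-cell members. Of 4 choroid plexus miRNAs, 3 were detected, and miR-211-3p was at 0. Their sum ran from 291 to 603 RPM in SE-BDEV and from 322 to 489 RPM in CON-BDEV. miR-204-5p led them at 382, 561 and 257 RPM in SE-BDEV and 293, 397 and 450 RPM in CON-BDEV replicates 1, 2 and 3. miR-211-5p, its close relative, had 0.499 RPM in SE-BDEV replicate 2 and 0 elsewhere. 0 of the 2 tested passed in limma, with 0 at an unadjusted p under 0.05 and 0 in limma-voom, with a median log2 difference of 0.01. Of 5 miRNAs of the epithelial miR-200 family all were detected, at 13.8 to 19.5 RPM summed in SE-BDEV and 22.0 to 31.6 RPM in CON-BDEV, so the sums did not overlap. Single miRNAs did not overlap in either direction in 14.8% of those over 10 RPM and in 8.58% of those of 1 to 10 RPM. The like share for sums of several miRNAs was not computed. miR-429-3p, the one member tested by limma, held the largest part of the sum in each library, so the sums lean most on it. It stood at 9.50, 7.65 and 8.67 RPM in SE-BDEV replicates 1, 2 and 3. In CON-BDEV replicates 1, 2 and 3 it stood at 17.5, 14.4 and 12.5 RPM, also without overlap. Its means were 8.60 RPM ± 0.927 (SD, n = 3) in SE-BDEV and 14.8 RPM ± 2.56 (SD, n = 3) in CON-BDEV. limma gave a log2 difference of -0.71 (standard error 0.27) with an adjusted p of 0.373 (unadjusted 0.018). miR-429-3p did not pass in limma-voom either. The next in level were miR-200a-3p (3.81 RPM over all libraries), miR-200b-3p (3.53 RPM) and miR-200c-3p (2.82 RPM), each with overlapping groups. miR-141-3p was at 0 in SE-BDEV and in CON-BDEV replicate 2. The part of these cell types in the levels of miR-34b, miR-34c and miR-449a was not tested.

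Other miRNAs linked to p53, by transcription or by processing, were listed with 14 names, of which 13 had an entry, 12 were detected and 7 were tested. 0 of the 7 passed in limma in either direction, with 1 (miR-16-5p) at an unadjusted p under 0.05, beside 9.31% of all 290, and 0 in limma-voom, with a median log2 difference of -0.18 beside -0.07 for all 290. The most abundant were miR-16-5p, which restrains the cell cycle, the merged entry miR-103-3p/107-3p, miR-143-3p of smooth muscle, and miR-22-3p. Their log2 differences were -0.29, -0.18, -0.19 and -0.09, with limma adjusted p of 0.486, 0.826, 0.838 and 0.935. miR-16-5p averaged 7288 RPM ± 271 (SD, n = 3) in SE-BDEV and 8961 RPM ± 872 (SD, n = 3) in CON-BDEV, with no overlap between groups, as for 14.8% of the 290 miRNAs in either direction. The neuron-enriched list had 0 of 10 tested members that passed in limma, likewise 0 at an unadjusted p under 0.05 and 0 in limma-voom, with a median of 0.00, and was led by miR-7a-5p (0.17), miR-127-3p (-0.08), miR-9-5p (-0.24) and miR-128-3p (-0.33).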

How the data were processed

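Per the labels' protocols, vesicle RNA was purified on miRNeasy columns, treated with DNase and made into QIAseq miRNA libraries. Aligner, counter and use of molecular identifiers: not given in the sources used here. The submitters' processing notes name mm9 and DESeq2. The authors deposited RPM values for 1926 entries. The deposited table of fold changes gives, per the file headers, a base mean (a signal of normalized counts), log2 fold changes, a Wald score and p-values, and was not refitted.

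RPM values were whole multiples, within 0.01 reads, of 1 read, taking the lowest value as 2 reads, which gave depths. Taking the normalized SE-BDEV reads from 6 times a base mean left the CON-BDEV total of that name. All 687 totals above 0 matched a CON-BDEV row within a relative 1e-05, and 597 had 1 candidate row. limma-trend (limma 3.58.1, R 4.3.3) was run on log2(RPM + 1) for the 290 miRNAs whose mean reached 10 RPM, two-sided, with Benjamini-Hochberg adjustment, and was tested on simulated data. Other values used Python 3.11.15 and scipy 1.17.1. Intervals at 95% are limma's for differences and exact Poisson, for counting error only, for the reads of a library.

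Members, lists and tests were chosen with earlier results of these data known. All members are named, with list members that pass or otherwise the 4 most abundant, and the 3 nearest profiles. The alternatives were other pseudocounts, filters and scalings, limma without trend, a replicate block, the names as deposited, each library left out, and, added after the data were seen, limma-voom and the SD within groups without each library.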

Additional observations from a re-analysis of the deposited data

How the results depend on the processing

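The count of calls over all miRNAs, 3 with all libraries, was 3 with a pseudocount of 0.5 RPM and 4 with 5 RPM, 4 without the filter, 2 with a filter of 50 RPM, and 3 with limma-voom, limma without trend, and quantile or median-of-ratios scaling. It was 0 with the CON-BDEV names as deposited, with 2 miRNAs at an unadjusted limma p under 0.05, and ran from 3 to 6 with 1 library left out, with 6 without CON-BDEV replicate 2 and 5 without CON-BDEV replicate 3. None of the tested members passed under any of these settings (3 members, or 2 with the filter of 50 RPM, which leaves out miR-449a-5p), with limma adjusted p from 0.612 to 0.9997. With the names as deposited, which put other reads under each CON-BDEV name, the log2 difference was 0.018 for miR-34a-5p, -0.088 for miR-34c-5p and 0.091 for miR-449a-5p, and the ratio of means of miR-34b-3p was 0.922. Leaving out each library in turn gave -0.22 to -0.0024 for miR-34a-5p, -0.54 to 0.054 for miR-34c-5p, -0.36 to 0.10 for miR-449a-5p and -0.54 to 0.24 for the log2 ratio of the miR-34b/c arms to miR-34a-5p. Median-of-ratios scaling moved the median of all 290 miRNAs from -0.07 to 0.03 and gave -0.04, -0.09 and -0.09 for miR-34a-5p, miR-34c-5p and miR-449a-5p, and quantile normalization gave -0.40 for miR-449a-5p. The cause of these shifts was not tested. With the replicate number as a block the differences were -0.14, -0.20 and -0.18 and the count of calls was 3. Same-numbered libraries deviated with correlations of -0.42, -0.25 and 0.04 across miRNAs, beside -0.20 to 0.42 for libraries with different numbers. Deviations from a mean of 3 libraries constrain each other, so these values cannot decide whether the numbers pair the libraries. The planned edgeR and DESeq2 fits were not run, because the deposited values are RPM and the size of a read rests on taking the lowest value as 2 reads. Reads used for limma-voom, median-of-ratios scaling and the Poisson intervals rest on that same step. Depth limits miR-34b and miR-34c-3p, with 30 reads or fewer a library, and miR-449c-5p, with 0. For the 3 tested members the spread between libraries was larger than counting error.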
